A study of Mus musculus with 54 samples.

Results

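The loci of Fli1, Runx1 and Mef2c were followed through every deposited table of a study of chromatin in mouse B-cell progenitors. They are 3 of the 17808 gene names in those tables, and every region, peak and contact that the authors' annotation gives to them was taken. Fli1 has 2 regions in the tables that compare genotypes, whereas Runx1 and Mef2c have 0. Those tables hold only regions of genes the authors had picked as enriched in Wt, so absence from them is no measure of accessibility. All 3 loci have peaks of Fli1 and Ikzf1, accessible regions and promoter contacts. In all these are 33 Fli1 peaks, 16 Ikzf1 peaks, 99 accessible regions and 85 contacts.

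Fli1 encodes a factor of the ETS family, which binds a GGAA core and is active in stem cells, megakaryocytes and lymphoid progenitors. Runx1 encodes the DNA-binding partner of Cbfb and is required for blood stem cells and for early B-cell development. It is transcribed from a distal promoter, P1, and a proximal promoter, P2. Mef2c encodes a MADS-box factor that favours the lymphoid over the myeloid fate in multipotent progenitors. Ikzf1 (Ikaros) is a zinc-finger factor of lymphoid progenitors, E2A (encoded by Tcf3) and Ebf1 are factors that open the B-lineage programme, and BRG1 and EP300 are a remodeller subunit and a histone acetyltransferase.

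The study labelled 54 samples, those from mice as ProB cells. E2A-KO, Ebf1-KO and wild-type (Wt) fetal liver cells of C57BL6/J mice were expanded over OP9 stroma in a cytokine mix of interleukin-7, FLT3 ligand and KIT ligand. Ebf1-KO cells that carried an Ebf1ER vector, an Ebf1 protein made inducible by 4OHT, were sampled at 0, 6, 24 and 72 h of 4OHT with 2 labelled samples per time. 230-238 cells, an Abelson-transformed progenitor B cell line called the Abelson line here, gave accessible regions, H3K4me3 PLAC-seq contacts (2 labelled samples each) and the Ebf1 peaks behind the regions called Ebf1-bound. ATAC-seq had 3 labelled samples each of E2A-KO and Wt. ChIP-seq had 2 samples each of Ebf1-KO and Wt for H3K4me3 and H3K27me3, and 1 each for H3K4me2, RNA polymerase II (PolII), BRG1 and EP300, as had CUT&RUN of H3K27ac. Fli1 and Ikzf1 peaks came from 1 Wt sample each. The cells are cultured progenitors rather than cells taken straight from the liver, the Abelson line is a single transformed line, and the 4OHT series has no cells without Ebf1ER.

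Each genotype or time was a single column of the region tables, pooled over libraries or from 1 library. No difference below therefore has a replicate check, and each compares these libraries. Values are tags per 10000000 tags of a library, called tags here, with 95% intervals that cover counting error only. Library totals ran from 24557525 tags for H3K27ac in Wt to 196071042 for H3K4me3 in Ebf1-KO. By its header the ATAC column of Wt pools 6 libraries, although the labels list 3 of them. That header does not state that mitochondrial reads were removed, as the headers of E2A-KO and of the 4OHT series do. It also names a size setting that those headers lack, and what these differences do to the values was not tested. Of the marker lists, 9 of 10 B-lineage genes had a region in the E2A-KO and Wt table. So had 1 of 6 myeloid, 1 of 3 natural killer and 0 of 6 T-lineage, 0 of 4 erythroid and 0 of 4 stromal genes. That table holds regions of genes picked as enriched in Wt, so these counts partly follow that choice and do not describe what the cells are. The same choice lies behind the other region tables, so medians and shares of all regions below refer to such genes. In the Abelson line, 6 of 10 B-lineage genes had an accessible promoter, against 2 of 6 T-lineage, 1 of 6 myeloid, 1 of 4 erythroid, 0 of 3 natural killer and 0 of 4 stromal genes. Of all 17808 gene names 6129 had one, and the difference of these short lists from that share was not tested.

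The promoters differ in sequence and in what lay on them. RefSeq windows of 300 bases (250 before and 50 after a start, build GRCm38.p6) were given for 2 of the 3 genes, with 2 windows for Runx1 and 3 for Mef2c. Those of the Runx1 P1 start (chr16:92826025-92826324, minus strand), the Runx1 P2 start (chr16:92697280-92697579, minus strand), and 2 Mef2c starts (chr13:83523406-83523705 and chr13:83573357-83573656, plus strand) are shown 5′ to 3′, because the Fli1 and Ikzf1 peaks described below lay at or beside some of them and not others. Capitals mark the ETS letters GGAAG, the RUNX letters TGTGGT or TGCGGT and the Ikaros letters TGGGAA, or their reverse complements.
Runx1 P1: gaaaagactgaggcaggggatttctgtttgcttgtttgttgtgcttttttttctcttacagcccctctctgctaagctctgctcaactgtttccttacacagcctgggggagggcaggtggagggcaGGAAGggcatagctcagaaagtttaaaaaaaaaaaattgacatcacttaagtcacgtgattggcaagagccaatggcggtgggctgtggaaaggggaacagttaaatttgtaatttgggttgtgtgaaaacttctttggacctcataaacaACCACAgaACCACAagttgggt
Runx1 P2: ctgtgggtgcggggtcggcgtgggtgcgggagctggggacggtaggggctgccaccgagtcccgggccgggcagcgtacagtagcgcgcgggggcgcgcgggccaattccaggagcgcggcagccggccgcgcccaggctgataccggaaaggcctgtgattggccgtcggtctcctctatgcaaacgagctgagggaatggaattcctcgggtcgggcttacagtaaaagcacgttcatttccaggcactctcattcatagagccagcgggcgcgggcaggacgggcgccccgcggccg
Mef2c, start at the accessible promoter: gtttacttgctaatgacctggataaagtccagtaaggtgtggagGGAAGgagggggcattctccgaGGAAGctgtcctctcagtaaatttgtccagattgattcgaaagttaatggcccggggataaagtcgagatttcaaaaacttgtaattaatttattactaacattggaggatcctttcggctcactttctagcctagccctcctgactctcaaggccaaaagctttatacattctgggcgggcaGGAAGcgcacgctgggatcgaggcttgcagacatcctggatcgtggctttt
Mef2c, start downstream of it: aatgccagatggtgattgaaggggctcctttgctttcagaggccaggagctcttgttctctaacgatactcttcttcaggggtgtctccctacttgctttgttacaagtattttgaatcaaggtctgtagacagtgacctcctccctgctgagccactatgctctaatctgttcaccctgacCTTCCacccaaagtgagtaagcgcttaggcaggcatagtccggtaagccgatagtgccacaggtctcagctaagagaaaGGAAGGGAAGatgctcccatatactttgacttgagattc

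P1 held 1 ETS match, at base 128 of the window, and 2 RUNX matches, at bases 279 and 287, which lie 28 and 36 bases after the start. P2 held 0 of the motifs searched. The bare GGAA core, which was not searched for, does stand in the printed P2 bases. The printed Mef2c windows held 3 ETS matches each, of which 2 stand side by side in the downstream window, and 0 RUNX or Ikaros matches. Of all 32851 promoter windows, 71.4% held the ETS letters, 22.4% the RUNX letters and 25.6% the Ikaros letters on either strand. The longer ETS form CCGGAAG (8.86% of windows), the EBF letters CCCNNGGG (13.7%), the GATA letters AGATAA (11.2%) and the MEF2 letters TATTTTTA or TATTTATA (4.30%) were in 0 of the 5 member windows, and the E-box letters CAGGTG or CAGCTG (32.9%) were in 1, P1. P1 had a GC content of 45%, and P2 of 69%. Some motifs can overlap on the same bases, and a match is a description of letters, not a bound site.

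The Fli1 regions came first among the comparisons of genotypes. A region upstream of Fli1 was less accessible in E2A-KO than in Wt by about 4-fold. Its values of PolII, H3K4me3, H3K4me2 and BRG1 were lower in Ebf1-KO than in Wt, also relative to the median of all regions. At or below its log2 difference lay 13.2% of the regions for PolII, but 35.2% for H3K4me3, 39.3% for H3K4me2 and 35.8% for BRG1. H3K27ac was lower by about as much as the median region, with a log2 difference of -0.060 after TMM scaling, and so was the column labelled EP300, whose antibody in Wt is uncertain. It lies at chr9:32612205-32613495 (mm10), is 1291 bp long and intergenic, and its centre is 71.4 kb upstream of the start of Fli1 transcript NM_008026, the nearest start in the authors' annotation. The authors class it as open in both Wt and Ebf1-KO and as Ebf1-bound. In the RefSeq table of the same build the nearer end of Ets1, another ETS factor of lymphocytes, lies 22.7 kb away, while the end of the Fli1 span lies 68.8 kb away. The other region, of 346 bp, lies in intron 1 of Fli1 at chr9:32499532-32499877, 41.7 kb downstream of the start. It is classed as open in Wt but not in Ebf1-KO and is not among the Ebf1-bound regions. Both overlapped an accessible region of the Abelson line, as did 96.9% of the 4983 regions of the table. Neither overlapped a Fli1 or Ikzf1 peak, while 35.7% of those regions overlapped a Fli1 peak and 11.4% an Ikzf1 peak.

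The upstream region had 20.8 ATAC tags in E2A-KO (interval 17.8 to 24.0), against 87.6 in Wt (83.0 to 92.4). The 2 intervals do not meet, and the value in E2A-KO was 4.22-fold lower (3.61 to 4.96). The intronic region had 4.08 tags in E2A-KO (2.84 to 5.68) and 9.10 in Wt (7.66 to 10.7), which is 2.23-fold lower in E2A-KO (1.53 to 3.33). On the log2 scale of value plus 1 the differences were -2.03 and -0.99. Most regions of this table were lower in E2A-KO, with a median of -0.76. Relative to the median, the upstream region was at -1.27 and the intronic region at -0.23. Because the table holds regions of genes picked as enriched in Wt, its median and shares are not genome-wide. Of the 2 regions, 1 was at least 2-fold lower on that scale, as were 37.9% of all 4983 regions, and 0 were at least 2-fold higher, as were 0.983%. At or below the value of the upstream region lay 11.4% of the regions, and at or below that of the intronic one 38.3%. Per kb of region, the upstream region had 16.1 tags in E2A-KO, against a median of 10.9 over all regions, and 67.8 tags in Wt, against a median of 22.5. Its Wt level per kb was exceeded by 11.04% of the regions. With TMM factors in place of library totals the differences were -1.15 and -0.23.

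In Ebf1-KO cells with Ebf1ER, only the upstream region was in the table of 1172 Ebf1-bound regions. It had 19.5 tags at 0 h (15.7 to 23.9), 26.8 at 6 h (21.6 to 32.8), 26.5 at 24 h (21.5 to 32.3) and 33.1 at 72 h (27.4 to 39.8) of 4OHT. The value at 72 h was the highest of the 4 and its interval did not meet that of 0 h, while the intervals of 6 and 24 h overlapped those of both. Set directly against 0 h, the ratio was 1.38 at 6 h (1.02 to 1.86), 1.36 at 24 h (1.01 to 1.83) and 1.70 at 72 h (1.28 to 2.27), and none of these ratio intervals holds 1. On the log2 scale of value plus 1 the differences at 6 and 24 h were 0.44 and 0.43, against medians of 0.26 and 0.47 over all regions. At 72 h the log2 difference of value plus 1 was 0.74. The median over all regions of the table was 0.50, so the region was 0.24 above it. It was not among the regions at least 2-fold higher at 72 h, which made up 18.2% of the table (0 of 1 member region). With TMM factors the difference was 0.20. The library totals of 6 h and 72 h, 34710011 and 34710016 tags, are nearly the same.

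**Figure D1:**
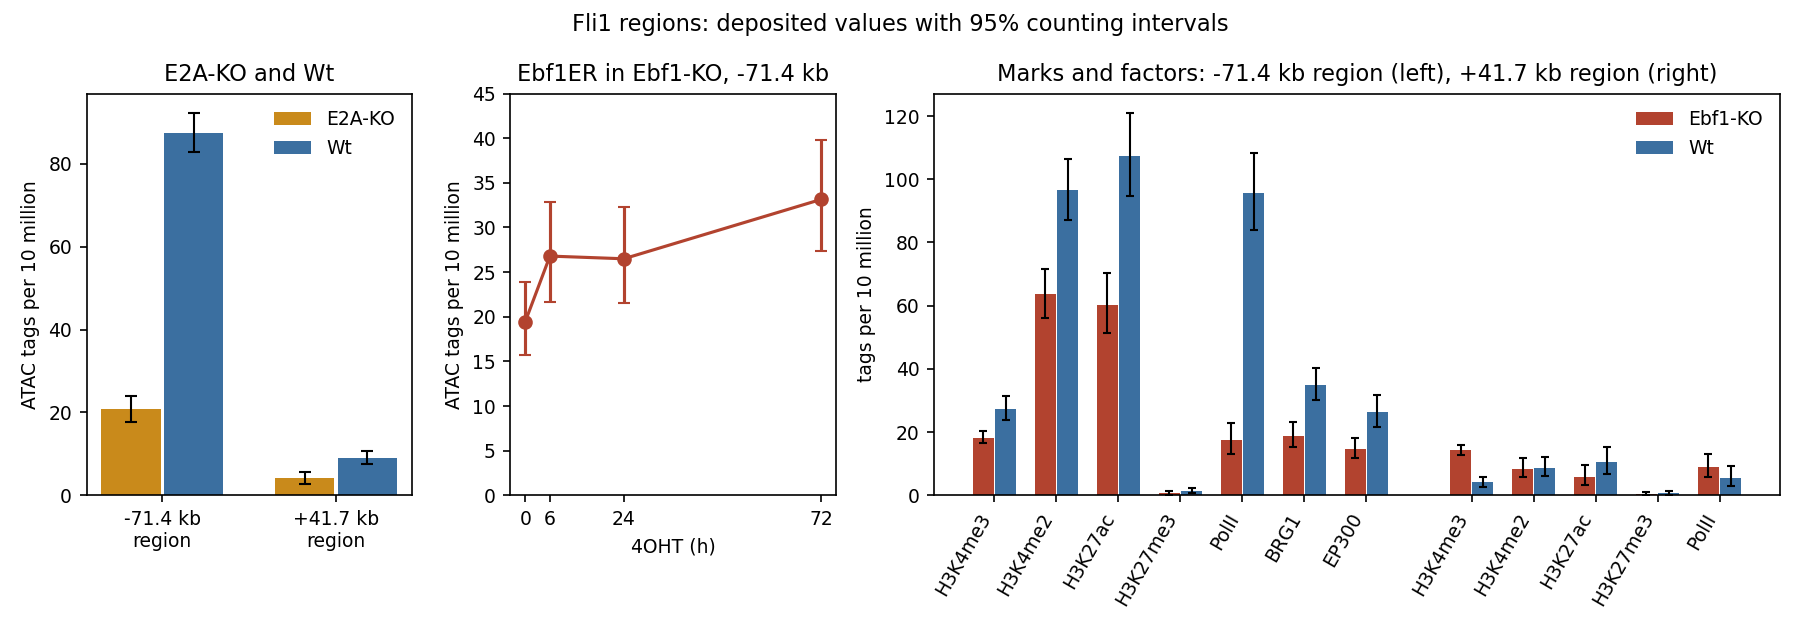
Deposited values (tags per 10000000, bars or points, with 95% counting intervals) of the 2 Fli1 regions: ATAC in E2A-KO and Wt (left), ATAC of the -71.4 kb region by hours of 4OHT (middle), and marks and factors in Ebf1-KO and Wt (right). The -71.4 kb region is lower in E2A-KO (20.8) than in Wt (87.6), and PolII shows the widest gap among its marks and factors (17.4 in Ebf1-KO, 95.6 in Wt).

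PolII, the enzyme that transcribes protein-coding genes, showed the widest gap at the upstream region. It had 17.4 tags in Ebf1-KO (12.99 to 22.9) and 95.6 in Wt (84.0 to 108), 5.48-fold lower in Ebf1-KO (4.04 to 7.56). The log2 difference of value plus 1 was -2.39, against a median of -0.68 over 3764 regions, and 13.2% of the regions lay at or below it. At the intronic region PolII had 8.89 tags in Ebf1-KO (5.81 to 13.03) and 5.46 in Wt (2.99 to 9.17), intervals that overlap, and the ratio interval of 0.819 to 3.37 holds 1. Its log2 difference was 0.61, which is 1.29 relative to the median of all regions and 1.29 with TMM factors. Unscaled, 1 of 2 regions was at least 2-fold lower in PolII, beside 40.0% of all regions. Per kb, the Wt PolII level of the upstream region, 74.1 tags, was exceeded by 4.28% of the regions.

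H3K27ac, a mark of active promoters and enhancers, had 60.3 tags in Ebf1-KO (51.4 to 70.3) and 107 in Wt (94.7 to 121) at the upstream region. The value was 1.78-fold lower in Ebf1-KO (1.46 to 2.18), with a log2 difference of -0.82 against a median of -0.69 over all regions. With TMM factors the difference was -0.060. The level itself was high in both genotypes: per kb, 46.7 tags in Ebf1-KO were exceeded by 4.17% of the regions, and 83.1 tags in Wt by 1.62%. The intronic region had 5.92 tags in Ebf1-KO (3.39 to 9.62) and 10.4 in Wt (6.75 to 15.3), and its ratio interval of 0.285 to 1.11 holds 1. Of the 2 regions, 0 were at least 2-fold lower in H3K27ac, beside 37.3% of all regions.

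H3K4me2, found at enhancers and promoters, had 63.5 tags in Ebf1-KO (56.1 to 71.7) and 96.4 in Wt (87.2 to 106) at the upstream region, which is 1.52-fold lower in Ebf1-KO (1.30 to 1.78). The log2 difference was -0.59 and the median of all regions -0.20. At the intronic region the 2 libraries were close, with 8.39 tags in Ebf1-KO (5.85 to 11.7) and 8.75 in Wt (6.13 to 12.1), a ratio of 0.960 (0.585 to 1.57). Its log2 difference was -0.05, and 0.09 with TMM factors. For H3K4me2, 0 of 2 regions were at least 2-fold lower, beside 30.5% of all regions.

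H3K4me3, the mark of active promoters, differed in direction between the 2 regions. The upstream region had 18.3 tags in Ebf1-KO (16.4 to 20.3) and 27.4 in Wt (23.8 to 31.4), 1.501-fold lower in Ebf1-KO (1.26 to 1.78). The intronic region had 14.3 tags in Ebf1-KO (12.7 to 16.1) and 4.05 in Wt (2.75 to 5.74), 3.53-fold higher in Ebf1-KO (2.43 to 5.30). The log2 differences were -0.56 and 1.60, with a median of 0.03 over all regions, and 5.05% of the regions lay at or above the intronic one. Of the 2 regions, 0 were at least 2-fold lower (25.3% of all regions were) and 1 was at least 2-fold higher (15.5% were). This intronic region had no such gap in H3K4me2, and it is classed by the authors as closed in Ebf1-KO. H3K4me3 in Ebf1-KO had the deepest library, 196071042 tags, against 76632191 in Wt.

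H3K27me3, the mark of Polycomb-repressed chromatin, was close to its floor. The upstream region had 0.58 tags in Ebf1-KO (0.175 to 1.42) and 1.29 in Wt (0.590 to 2.45), and the intronic region had 0.32 in Ebf1-KO (0.0538 to 1.04) and 0.57 in Wt (0.156 to 1.47). These values rest on 4.5 recovered tags in Ebf1-KO and 9.0 in Wt at the upstream region, and on 2.5 in Ebf1-KO and 4.0 in Wt at the intronic one, so no difference was detectable at this depth. Of the 2 regions, 0 were at least 2-fold lower, beside 4.70% of all regions.

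BRG1 and EP300 were measured at the upstream region only. BRG1 had 18.9 tags in Ebf1-KO (15.2 to 23.2) and 35.0 in Wt (30.1 to 40.4), 1.85-fold lower in Ebf1-KO (1.43 to 2.41). Its log2 difference was -0.86, against a median of -0.29 over 1172 Ebf1-bound regions. EP300 had 14.7 tags in Ebf1-KO (11.9 to 18.0) and 26.3 in Wt (21.6 to 31.7), 1.78-fold lower in Ebf1-KO (1.34 to 2.38), with a log2 difference of -0.79 against a median of -0.56. The antibody field of the Wt EP300 sample names PolII with a question mark, so which protein that column measured is uncertain. For BRG1, 0 of 1 region was at least 2-fold lower, beside 32.4% of all regions, and for EP300 0 of 1, beside 36.9%.

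**Figure D2:**
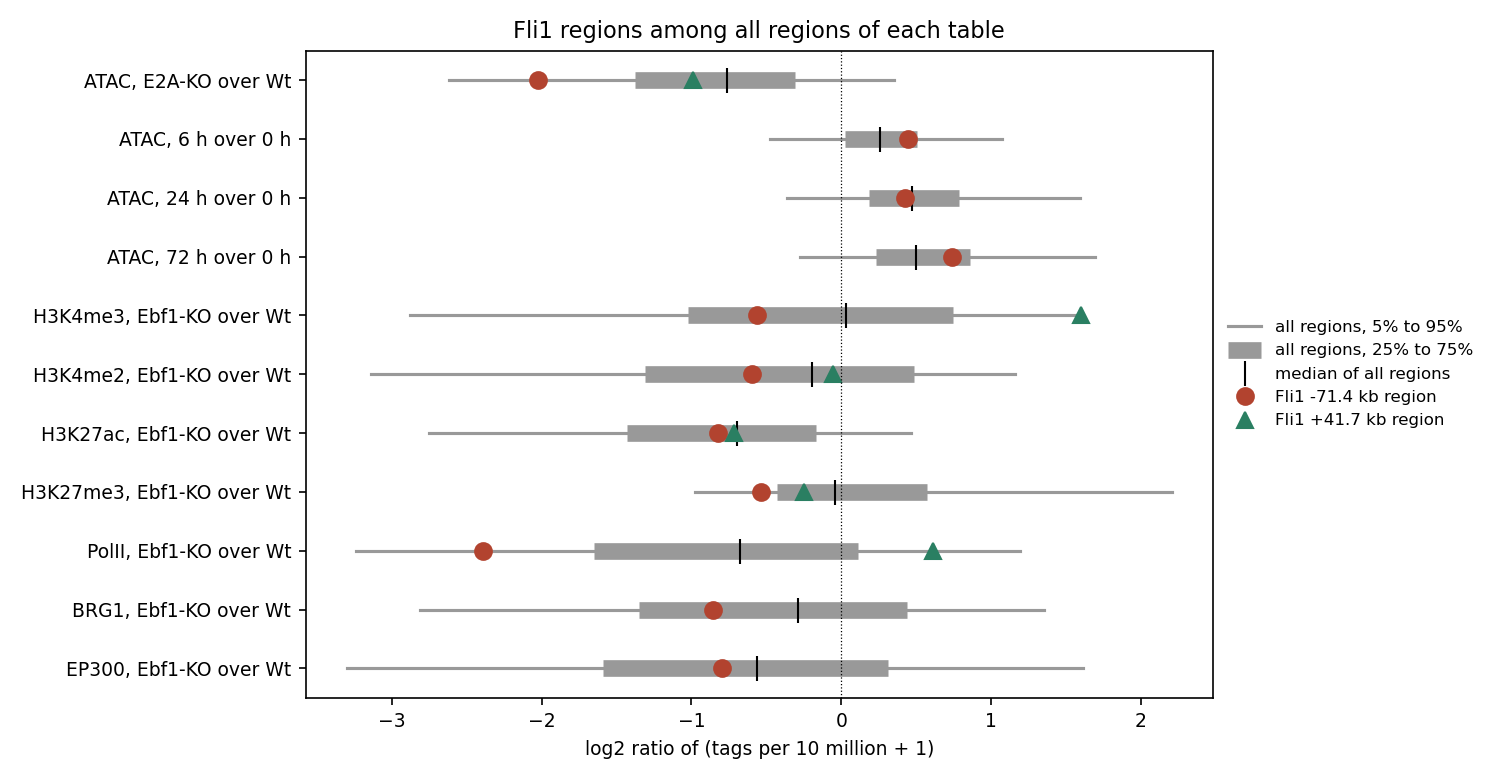
Log2 ratio of value plus 1 of the 2 Fli1 regions (points) in each comparison of the region tables, over the middle 50% and 90% and the median of all regions of that table. The -71.4 kb region lies left of the middle 50% for E2A-KO ATAC (-2.03) and PolII (-2.39), and the +41.7 kb region lies at the right end for H3K4me3 (1.60).

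The genes whose strongest region was most like that of Fli1 were found by the distance over log2 of value plus 1 in all columns of a table. In the table of E2A-KO and Wt (2 columns, 1787 genes) they were Clec2d at a distance of 0.0844, Plod2 at 0.109 and Plxna2 at 0.111, against a median of 1.96 over all genes. Over the 4 times of 4OHT (799 genes) they were Aqp11 at 0.186, Arhgef3 at 0.249 and Themis2 at 0.303, with a median of 2.48. Over the 10 columns of marks and PolII (1623 genes) they were Litaf at 1.78, Lpp at 1.80 and Gm17745 at 1.93, with a median of 6.43. Over the 6 columns of BRG1, EP300 and PolII (803 genes) they were Bnip3 at 0.773, Nedd9 at 0.828 and Ltbp4 at 0.854, with a median of 3.21. No gene was in the first 3 of more than 1 table. Litaf, for example, had 78.4 tags of H3K4me2 in Ebf1-KO and 92.1 in Wt, near the 63.5 in Ebf1-KO and 96.4 in Wt of Fli1.

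Fli1 and Ikzf1 peaks of Wt progenitors were then placed on the 3 loci. Runx1 had 23 Fli1 peaks and 11 Ikzf1 peaks, more Ikzf1 peaks than any of the other genes in that list of 4127 gene names. In the Fli1 list, of 13033 gene names, 3 had more peaks than Runx1, namely Mir6388 with 41, Rpia with 26 and Mir7094-2 with 24, named here after their values were seen. The median gene in either list had 1 peak. Fli1 itself had 5 Fli1 and 2 Ikzf1 peaks, and Mef2c had 5 and 3. Counts per gene depend on how far the nearest other start lies, since each peak goes to its nearest start, and RefSeq gives Runx1 a span of 225 kb, Mef2c 163 kb and Fli1 121 kb.

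The peak score is the authors' own value and ranks peaks within a list. At Runx1, Fli1 peaks scored from 8.58 to 55.3 with a median of 22.4, and 14 of 23 exceeded the median of the whole list, 16.7. The highest, at 55.3, was an intergenic peak 96.0 kb upstream of the distal start (chr16:92921893-92922245), and 1.43% of all Fli1 peaks scored higher. The next at this locus was 44.3, in intron 3 (chr16:92644732-92645084), followed by 37.2 at 42.9 kb upstream (chr16:92868801-92869153). Of the 23, 11 were intronic, 11 intergenic and 1 at a promoter. That promoter was P1: a Fli1 peak with a score of 23.8 at chr16:92826201-92826553 covered the first 124 of the 300 bases of the P1 window. The ETS match of that window, which starts at base 128, lay only a few bases outside the peak. P2 had its nearest Fli1 peak 12192 bp away and its nearest Ikzf1 peak 18268 bp away. A further intronic Fli1 peak, with a score of 29.1, lay 24.2 kb downstream of P1 (chr16:92801674-92802026), in the long intron that is known to hold a stem-cell enhancer of Runx1.

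Ikzf1 peaks at Runx1 scored from 5.49 to 11.4 with a median of 7.84, and the median of the whole list was 7.05. The 2 highest lay side by side 206 and 203 kb upstream of P1, with scores of 11.4 (chr16:93031625-93031809) and 11 (chr16:93028623-93028807). Each overlapped a Fli1 peak, with scores of 29.5 and 26.7. In all, 8 of the 11 Ikzf1 peaks (72.7%) overlapped a Fli1 peak and 8 of the 23 Fli1 peaks (34.8%) an Ikzf1 peak, beside 71.8% of all 5741 Ikzf1 peaks and 15.1% of all 27261 Fli1 peaks. Within 500 bp of a Fli1 peak lay 10 of the 11, a share that was not computed for the whole list. The Ikzf1 peak at P1 (chr16:92826640-92826824, score 7.45) did not overlap the Fli1 peak there and lay 87 bp upstream of it. The 8 Fli1 peaks that overlapped an Ikzf1 peak had a median score of 29.3, and the other 15 one of 14.3. The other 2 loci did not show this gap. At Mef2c the 1 overlapping peak scored 21.9 and the other 4 had a median of 30.25, and at Fli1 the values were 17.2 and 15.7. The same medians were not computed for the whole list. With overlap of 50% of the shorter peak as the rule, 4 of the 23 were shared.

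At its own locus, Fli1 had 5 peaks with scores from 10.5 to 35.7. The highest lay 29.4 kb upstream (chr9:32570643-32570995), 2 others lay 19.4 and 40.6 kb upstream with scores of 17.2 and 13.8, and 2 lay in introns 1 and 2 with scores of 17.6 and 10.5. The Fli1 promoter had 0. The peak 19.4 kb upstream was the single one that an Ikzf1 peak overlapped (chr9:32560811-32560995, score 6.66), and the other Ikzf1 peak lay in intron 1 with a score of 8.23. Of the 5 Fli1 peaks, 3 (60%) lay on an accessible region of the Abelson line, beside 75.1% of all Fli1 peaks.

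At Mef2c, the 5 Fli1 peaks lay in an upstream and an intronic part of the locus. A pair lay 393 and 391 kb upstream of the start that the list uses (chr13:83111286-83111638 and chr13:83112622-83112974) with scores of 17.6 and 21.9, and the second overlapped an Ikzf1 peak with a score of 6.27. The other 3 were intronic, with scores of 49.5, 15.7 and 42.9. The first of these, at chr13:83571916-83572268, was exceeded by 2.48% of all Fli1 peaks and had an Ikzf1 peak on either side, 75 and 150 bp away, with scores of 6.66 and 7.45. It lay 1089 bp before the window of the downstream Mef2c start printed above. The peak list counts this position as 68.1 kb from the start, and the list of the Abelson line, which uses more transcripts, puts the accessible region there 1.32 kb upstream of a start.

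**Figure D3:**
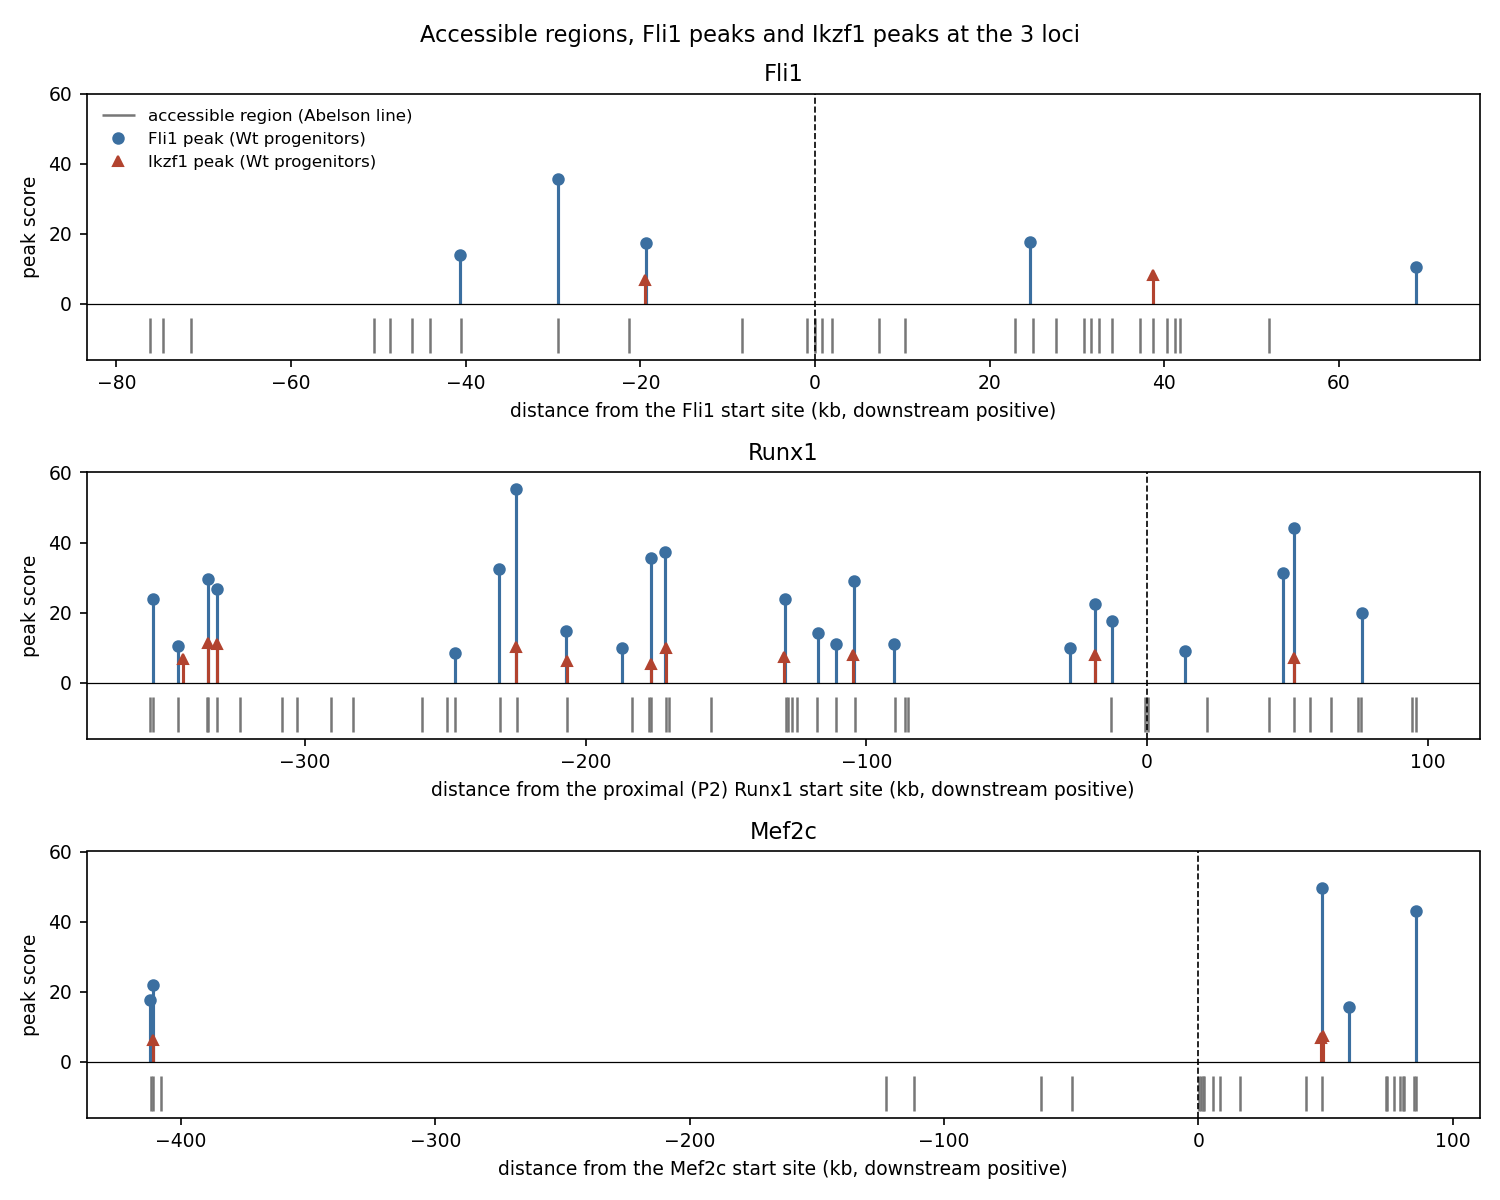
Fli1 peaks (circles) and Ikzf1 peaks (triangles) of Wt progenitors, with height as the authors' peak score, and accessible regions of the Abelson line (ticks), by distance from the start site in kb. Runx1 carries 23 Fli1 and 11 Ikzf1 peaks over both sides of P2, Fli1 carries 5 and 2, and Mef2c carries 5 and 3 in an upstream and an intronic place.

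**Figure D4:**
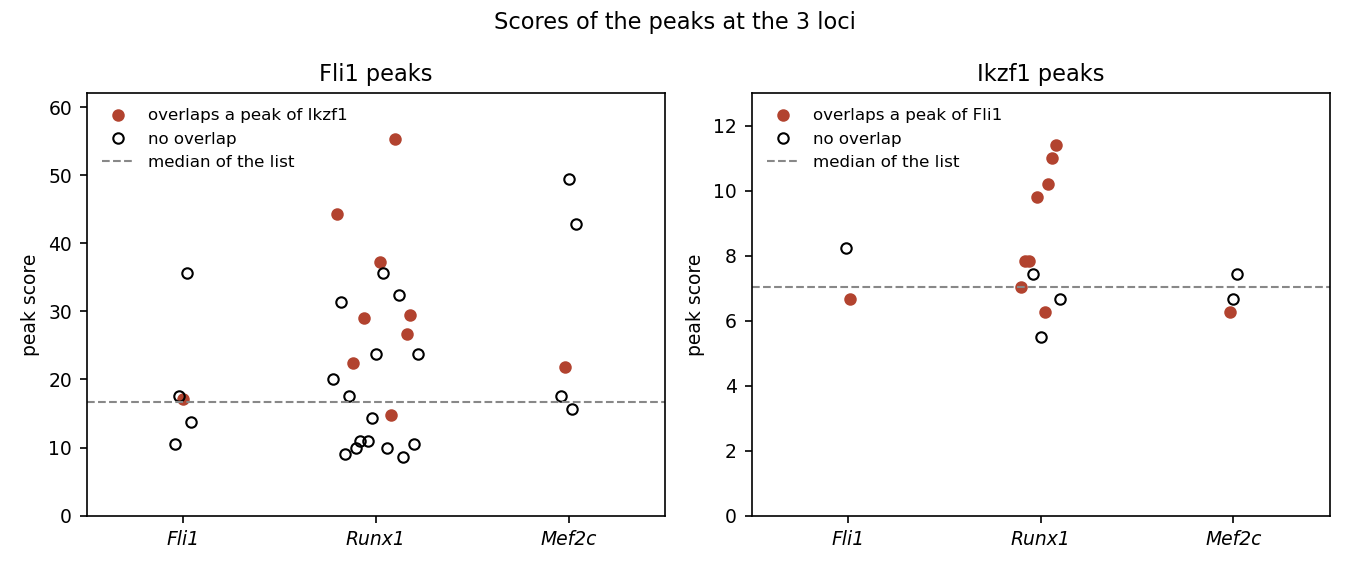
Scores of each Fli1 peak (left) and Ikzf1 peak (right) at the 3 loci, filled where the peak overlaps one of the other list, with the median of the whole list (16.7 and 7.05) as a dashed line. The filled Fli1 peaks at Runx1 have a median of 29.3 and the open ones of 14.3. At Mef2c the 1 filled peak scores 21.9 and the open ones have a median of 30.25, and at Fli1 the values are 17.2 and 15.7.

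Accessible regions of the Abelson line were many at all 3 loci by count per gene name. Like the peak counts, these depend on how far the nearest other start lies, and no density per kb was computed. Runx1 had 45, Fli1 30 and Mef2c 24, where the median gene had 2. Of 16039 gene names, 4 had more than Runx1 (0.0249%), namely Rprl1, 4930515G16Rik, Foxp1 and Rpia, chosen after their values were seen. More than Fli1 had 29 gene names (0.181%), and more than Mef2c 84 (0.524%). The regions at Fli1 were within 76.1 kb of a start, those at Runx1 within 226 kb and those at Mef2c within 392 kb. By annotation, 17 of the Fli1 regions, 18 of the Runx1 regions and 15 of the Mef2c regions were intronic. Fli1 peaks lay on 18 of 45 regions at Runx1 (40%), 4 of 24 at Mef2c (16.7%) and 3 of 30 at Fli1 (10%), beside 32.0% of all 65093 regions. Ikzf1 peaks lay on 8 (17.8%), 2 (8.33%) and 1 (3.33%) of them, beside 7.57% of all regions. At Runx1 all 8 regions with an Ikzf1 peak also had a Fli1 peak, as had the 2 at Mef2c, while the 1 at Fli1 did not. The P1 window was accessible over 295 of its 300 bases and the P2 window over all 300.

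The Ebf1-bound regions are those near genes the authors had picked as enriched in Wt. Of the 99 accessible regions, 1 was listed as Ebf1-bound, the region upstream of Fli1. Regions near Runx1 and Mef2c were not among those tables. Nor were the accessible regions at Fli1 other than the 2 Fli1 regions described above. Ebf1 binding at all these places was therefore not analysed here.

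PLAC-seq joins DNA pulled down with H3K4me3 to what it touches, and the deposited list gives contact counts between 5 kb bins with a q-value of at most 0.05. Neighbouring contacts were merged, per the file headers, and the depth behind the counts is not given in the sources used here. The promoter bin was the one that overlaps an accessible region annotated as a promoter of the gene. Runx1, from the P2 bin, had 42 interactions, Mef2c 29 and Fli1 14, where the median of 6129 genes with an accessible promoter was 6. More than Runx1 had 5 of those genes (0.0816%), named after their values were seen as Myc, Cited2, Klf6, Bcl6 and Ptger4. More than Mef2c had 17 (0.277%) and more than Fli1 501 (8.17%).

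The partners of P2 lay far upstream. Of the 42, 39 were upstream and 39 lay more than 100 kb away, and the median distance was 402.5 kb (75 to 1140 kb), while the median of all 69898 interactions was 130 kb. The partner with the lowest q (1.56e-39) was a bin 595 kb upstream with 45 contacts (chr16:93290001-93295000), which held a Fli1 peak and 2 accessible regions. The next, with q of 4.11e-23, lay 440 kb upstream with 32 contacts and a Fli1 peak. Accessible regions lay in 23 of the 42 partner bins (54.8%), a Fli1 peak in 12 (28.6%), and an Ikzf1 peak in 7 (16.7%). Over the interactions of all accessible promoters these shares were 61.95% for accessible regions, 39.7% for Fli1 peaks and 12.2% for Ikzf1 peaks. In 11 of the partner bins the accessible regions were assigned to Runx1, in another 11 to 1810053B23Rik, the next annotated gene upstream, and in 1 to 1700029J03Rik. The bins of 1810053B23Rik lay 410 to 595 kb from P2, and 5 of them held a Fli1 peak. The bin with the intronic Fli1 and Ikzf1 peaks 24.2 kb from P1 was a partner of P2, with 39 contacts (q 6.58e-13), and so was the bin of the 42.9 kb upstream peaks, with 37 (q 3.11e-14).

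P1 entered only where bins within 1 kb of a start were used, because its accessible region is annotated as an intron. Its 2 bins had 9 interactions, with at most 16 contacts. Of these 9 partners 4 were also partners of P2, among them the bin 595 kb upstream of P2, with 13 contacts for P1 (q 2.48e-05). P1 and P2 were not listed as partners of each other.

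Mef2c contacts ran in both directions. Of its 29 partners 24 were upstream, and 27 interactions came from the bin chr13:83525001-83530000, which the accessible promoter region enters by 2 bases. The lowest q (8.28e-17) was that of a bin 415 kb upstream with 28 contacts (chr13:83110001-83115000), the place of the upstream pair of Fli1 peaks and their Ikzf1 peak. A bin 455 kb upstream followed with 26 contacts (q 2.42e-14). Downstream, the bin with the Fli1 peak of score 49.5 and its 2 Ikzf1 peaks had 62 contacts at 45 kb (q 2.64e-07), and the bin with the peak of score 42.9 had 41 at 80 kb (q 4.95e-08). In this way 4 of the 5 Fli1 peaks and 3 of the 3 Ikzf1 peaks of Mef2c lay in bins that its promoter contacts, against 6 of 23 and 5 of 11 for Runx1 and 2 of 5 and 1 of 2 for Fli1. Accessible regions lay in 9 of the 29 partner bins (31.0%), Fli1 peaks in 6 (20.7%) and Ikzf1 peaks in 2 (6.90%). Each share is below that over the interactions of all accessible promoters, which was 61.95%, 39.7% and 12.2% in the same order. For peaks that lie in contacted bins, no share over all genes was worked out. At a q of at most 0.01, 17 of the 29 interactions were left.

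The Fli1 promoter bin (chr9:32540001-32545000) had closer partners, at a median of 75 kb. Its lowest q (3.59e-14) was with a bin of intron 1 at 35 kb, with 82 contacts and 3 accessible regions but 0 peaks of either factor. The bin 20 kb upstream that held the overlapping Fli1 and Ikzf1 peaks had 86 contacts (q 0.00102). The bin of the Ebf1-bound region was a partner at 70 kb with 32 contacts (q 0.0139). Accessible regions lay in 6 of the 14 partner bins (42.9%), Fli1 peaks in 2 (14.3%) and an Ikzf1 peak in 1 (7.14%). These shares too are below the 61.95%, 39.7% and 12.2% over the interactions of all accessible promoters. Of all 85 partner bins of the 3 promoters, 0 held an accessible region annotated as a promoter, beside 22.1% over the interactions of all accessible promoters.

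The bin of the Ebf1-bound region had 7 interactions, and that with the lowest q was not with Fli1. It joined the region to the accessible promoter of Ets1 at 85 kb, with 59 contacts and q of 7.06e-19, against 32 contacts and q of 0.0139 for the Fli1 promoter at 70 kb. Among the 10 interactions of the Ets1 promoter bin it had the lowest q. The other partners were at 125, 330, 55, 320 and 70 kb on the Ets1 side, with 10 to 25 contacts, and 2 of them held a Fli1 and an Ikzf1 peak. The intronic Fli1 region, whose bin had 3 interactions, was also joined to the Ets1 promoter, at 200 kb with 14 contacts (q 0.00773). Bins of 5 kb hold more than 1 region, so a contact cannot be given to one of them.

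**Figure D5:**
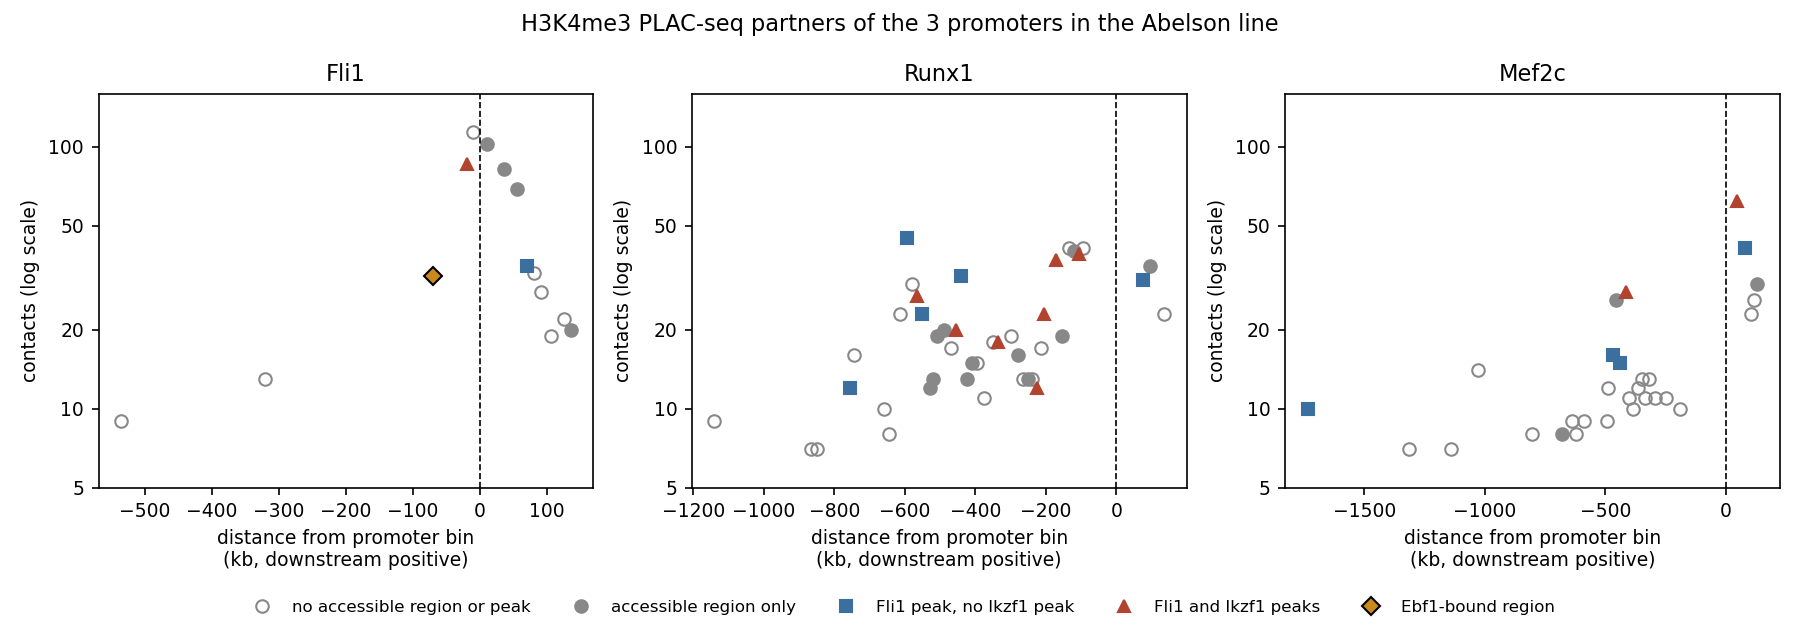
Contacts (log scale) of each partner bin of the 3 promoter bins by distance in kb, with upstream to the left, marked by what the partner bin holds. Runx1 partners reach 1140 kb upstream and Mef2c partners 1735 kb, Fli1 partners are closer with a median of 75 kb, and 1 Fli1 partner is Ebf1-bound.

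Other genes of the same network were looked up in the table of E2A-KO and Wt by their strongest region. That table covers genes picked as enriched in Wt, so having a region there partly follows that choice. Of 13 stem-cell and heptad factors, 1 had a region there, the LIM factor Lhx2, at least 2-fold lower, with 18.2 tags in E2A-KO and 44.6 in Wt (log2 difference -1.25). Of 11 ETS genes 3 had one and 1 was at least 2-fold lower in its strongest region: Spib with 27.1 tags in E2A-KO and 82.7 in Wt, while Ets1 had 44.7 in E2A-KO and 79.5 in Wt, and Elf2 16.1 in E2A-KO and 31.9 in Wt. Of 7 MEF2 genes and their cofactors 2 had one and 1 was at least 2-fold lower: the deacetylase Hdac7 with 30.6 tags in E2A-KO and 73.7 in Wt, while Mef2b had 49.6 in E2A-KO and 82.1 in Wt. Of 3 genes of the RUNX family and its partner 0 had one. Of 11 lymphoid priming genes 7 had one and 3 were at least 2-fold lower, among them Id3, an inhibitor of E2A, with 32.3 tags in E2A-KO and 76.2 in Wt. For the counts of lower genes the share to set beside them is 37.9%, that of all regions at least 2-fold lower. At least 2-fold higher in E2A-KO were 0 of these 13 genes, beside 0.983% of all regions.

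In the peak lists, 9 of the 13 stem-cell factors had a Fli1 peak (22 peaks in all, at most 5 in a gene), as had 9 of 11 ETS genes (27 peaks, at most 6), 3 of 3 RUNX genes and partner (18, at most 10), 6 of 7 MEF2 genes and cofactors (25, at most 9) and 10 of 11 lymphoid priming genes (43, at most 13). Each maximum is below the 23 of Runx1. Ikzf1 peaks were at 3, 6, 2, 4 and 8 genes of these lists in the same order. Of all 17808 gene names, 13033 had a Fli1 peak and 4127 an Ikzf1 peak, so a Fli1 peak is common and no trait of these lists. A name enters that total only by having a region or peak, so these are not genome-wide shares. Lyl1 and Lmo2, which bind with Fli1 and Runx1 in stem cells, had 4 Fli1 peaks each and 6 and 10 promoter interactions. The most promoter interactions among the listed genes were the 41 of Foxo1, followed by 28 each of Bcl11a and Ebf1, set beside 42 for Runx1 and 29 for Mef2c.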

How the data were processed

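Per the submitters' processing notes, the tools were Trim Galore 0.6.4, Bowtie2 2.3.5, SAMtools 1.9, deepTools 3.3.1, HOMER 4.10 and HiC-Pro 2.11.1, with Picard, MACS2, FastQC and edgeR unversioned, on mm10 (GRCm38.p5). The region tables hold a signal, the tags in each region after the authors set every library to a common size of 10000000, per the file headers. Multiplying back by the library size gave whole tags within 0.1 tag in 100% of regions, except that H3K27me3 and H3K27ac came in steps of 0.5 tag. The authors' peak score and the deposited contact counts and q-values were used as given. The score column of the accessible list holds no information and was not used. Of the accessibility table, 2 columns with no labelled sample were not used. Input, IgG, and Fli1 and Ikzf1 in Ebf1-KO were not analysed here.

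Values carry exact Poisson intervals of the recovered tags, and ratios exact conditional intervals. Log2 ratios have a pseudocount of 1, and regions past 2-fold by that measure were counted. Columns are pools or single libraries, so no test across samples was made. Overlap means 1 bp or more. For TMM, calcNormFactors (edgeR 4.0.16, R 4.3.3) was run on the recovered tags, and the scaling code and the intervals were tested on simulated data. Overlaps and intervals were computed in Python 3.11.15 (SciPy 1.17.1, with pandas 2.3.3 and numpy 2.4.6), and plots with matplotlib 3.10.9. Every member row is described or counted. Other genes are named by the lists, at most 4 per list by mean value, or by the 3 nearest patterns per table. Gene names of partner bins, Ets1, Lyl1, Lmo2, Foxo1, Bcl11a and Ebf1 as contacts or peak carriers, and genes above Runx1 were chosen after their values were seen. Members and lists were chosen with earlier results of these data known. Promoter sequences and gene spans are from RefSeq (GRCm38.p6).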

Additional observations from a re-analysis of the deposited data

How the results depend on the processing

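No paired analysis was possible because each group of the region tables is 1 column, pooled or from a single library, and the lists hold 1 sample or a pool. For the same reason replicates could not be left out. Of 70 recomputed values 56 stayed within the main value's counting interval or within 1.5 times a main count, and 0 changed sign among values past 2-fold. With TMM scaling the log2 difference at the -71.4 kb Fli1 region was -1.15 for E2A-KO over Wt ATAC, 0.20 for 72 h over 0 h, -0.060 for H3K27ac, -1.69 for PolII and -0.24 for EP300, and at the +41.7 kb region it was -0.23 for ATAC. TMM sets the typical region to no change, so these values are relative to the median. With a pseudocount of 5 the H3K4me3 difference at the +41.7 kb region was 1.09. A filter at 10 tags left out that region for ATAC, H3K4me2, H3K27me3 and PolII, and the -71.4 kb region for H3K27me3. With only peaks above the median score of their list, Fli1 peaks numbered 3 at Fli1 and 14 at Runx1, and Ikzf1 peaks 1 at Fli1, 7 at Runx1 and 1 at Mef2c. Runx1 then had the most Ikzf1 peaks of any gene, and 1 gene had more Fli1 peaks. With 50% overlap, 4 Fli1 peaks at Runx1 were shared with Ikzf1. At q of at most 0.01, Mef2c had 17 interactions. H3K27me3 at the Fli1 regions rests on at most 9.0 tags per library. At the +41.7 kb region the TMM difference for PolII was 1.29, where the unscaled one was 0.61.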

Other observations

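Between the Fli1 and Ets1 genes, which lie side by side on chromosome 9, the contact list of the Abelson line held 3 interactions that join a bin of the Fli1 span to a bin of the Ets1 span, with 10 to 15 contacts, beside 9 interactions within the Fli1 span. Of the 3, 2 ended in the bin of the accessible Ets1 promoter, at 260 kb (15 contacts, q 6.65e-05) and at 200 kb (14 contacts, q 0.00773). The Ets1 promoter bin had 10 interactions in all, and its second lowest q, 9.12e-10, was with a bin 385 kb away on the far side from Fli1, with 21 contacts.

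Contacts also joined places of the same locus that carry Fli1 peaks. Among the 24 bins with a Fli1 peak assigned to Runx1, 4 interactions joined 2 such bins. Among the 12 bins with its Ikzf1 peaks, 3 did. For Mef2c 2 interactions joined bins with Fli1 peaks and 0 joined bins with Ikzf1 peaks, and for Fli1 0 did either. Among bins with accessible regions the numbers were 18 for Runx1 (39 bins), 7 for Fli1 (18 bins) and 6 for Mef2c (16 bins). Whether bins with peaks touch each other more than accessible bins do was not tested.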
